A study of Arabidopsis thaliana with 4 samples.

Results

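WER-positive barcodes were drawn from 3 droplet libraries of Arabidopsis thaliana root protoplasts and chosen by their WER count. WER (AT5G14750, MYB66 in RefSeq) encodes an R2R3 MYB transcription factor. Among barcodes with at least 2000 unique molecular identifiers (UMIs, each standing for 1 captured transcript) and no more than 10% organelle UMIs, those with at least 2 WER UMIs and at least 100 counts per 1000000 UMIs (CPM) of WER were selected. The rule gave 1634 WER-positive barcodes among 17898 barcodes that passed the depth and organelle limits in the 3 libraries, out of 41823 deposited barcodes in 4 libraries. They were compared with the 13489 barcodes of the same libraries that had no WER UMI. WER itself chose the barcodes, so its values are a description and it entered no test.

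The study profiled root cells of 4 transgenic reporter lines, with 1 library per line, to judge co-expression against promoter reporters. The 3 lines used were pCORTEX:GFP, in which the CORTEX promoter drives GFP, pSCR:GFP, in which the SCR promoter drives GFP, and PET111, an enhancer trap line whose reporter row is YFP. The library of the 4th line, pWER:GFP, was not used to choose WER-positive barcodes, and its barcodes serve as a separate set chosen by GFP. All were diploid transgenic seedlings taken 4 to 5 days after germination and grown under continuous light, with no treatment beyond the transgene in the labels. Each line had its own batch in the labels, and the contributions of line and batch cannot be told apart. The labels do not say how many plants were pooled or whether separate cultures were used. P-values therefore measure the spread between libraries of different lines, 3 in the main fits. The last comparison and the fits with 1 library left out hold 2 libraries.

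In the root epidermis, WER is expressed in the cell files that will not form hairs, where with the bHLH proteins GL3 and EGL3 and the WD40 protein TTG1 it turns on GL2, a homeodomain repressor of hair genes, and CPC and TRY, small MYB proteins that can act in neighbouring cells. MYB23 is a WER relative that WER turns on and that reinforces the non-hair fate. The epidermis and the lateral root cap arise from a common stem cell, WER is also known to be active in the lateral root cap, and the NAC factors SMB, BRN1, BRN2 and FEZ act in the root cap and its stem cells.

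The sequence just upstream of WER is shown because the reporter of the 4th line is named for the WER promoter. In RefSeq assembly TAIR10.1, WER spans chromosome 5 from 4763372 to 4764834 on the minus strand. The 250 bases before its annotated start, chr5:4764835-4765084 read 5′ to 3′ on the minus strand, are
WER upstream: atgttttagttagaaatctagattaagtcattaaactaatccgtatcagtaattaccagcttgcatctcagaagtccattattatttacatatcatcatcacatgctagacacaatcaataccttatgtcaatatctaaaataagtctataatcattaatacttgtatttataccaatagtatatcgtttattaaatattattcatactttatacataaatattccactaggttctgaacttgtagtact
The promoter fragment used in the reporter was not given in the sources used here, and no motif was searched.

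WER-positive barcodes made up 13.1% of the filtered barcodes of pCORTEX:GFP (987 of 7552, exact Clopper-Pearson 95% interval 12.3% to 13.9%). They were 9.50% of PET111 (334 of 3516, 8.55% to 10.5%) and 4.58% of pSCR:GFP (313 of 6830, 4.10% to 5.11%). The intervals cover counting error only, and with 1 library per line the shares were not tested against each other. The WER level over all WER-positive barcodes was 198, 182 and 187 CPM in pCORTEX:GFP, PET111 and pSCR:GFP, the order of libraries kept in every list of 3 values from here on. Their median depth was 24391, 28824 and 18802 UMIs, above the 10043, 12013 and 7623 UMIs of barcodes with no WER UMI. The rule needs 2 UMIs, so it favours deeper barcodes, and the part of depth in each share was not tested. Just inside the limit, barcodes at 100 to 120 CPM of WER numbered 116, 52 and 43. Just outside, barcodes with 2 or more WER UMIs at 80 to 100 CPM numbered 110, 74 and 58, and a further 698, 292 and 535 barcodes had a single WER UMI. In pSCR:GFP, 4 barcodes that carried at least 10 GFP and at least 10 WER UMIs were left out. Between 30 and 35 barcode sequences were shared by any 2 of the 3 libraries.

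The label of young epidermis was set beside markers that the rule did not use. These lists were chosen with earlier results of these data known, so they are not an independent check. Patterning genes of the non-hair fate were raised in WER-positive barcodes. The shoot protoderm genes ATML1, PDF2, PDF1 and FDH were at 0 to 4 UMIs in all WER-positive barcodes of a library. The protoderm list of 7 genes also holds ACR4, ALE2 and HDG2. Its sum was higher in WER-positive barcodes, at 16.0, 20.8 and 25.5 CPM against 8.95, 11.9 and 11.8 in barcodes with no WER UMI. Root cap NAC transcripts were present too. Barcodes with at least 2 UMIs and at least 100 CPM summed over SMB, BRN1, BRN2 and FEZ were 53.4%, 44.9% and 64.9% of the WER-positive barcodes. Those with no UMI of the 4 genes were 36.8%, 46.4% and 24.3%. The name young epidermis therefore covered only some of the barcodes, and they are called WER-positive here.

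The comparison of WER-positive barcodes with barcodes that had no WER UMI asks which genes accompany WER. Among 20159 genes tested, 5.8% (1170) were higher and 20.4% (4122) were lower in WER-positive barcodes by edgeR's quasi-likelihood test on summed UMIs with the library as a block, at a Benjamini-Hochberg adjusted p under 0.05. The median log2 difference of all tested genes was -0.11. The lists of genes below are read against these background shares. Without pSCR:GFP the counts were 4986 and 6848, and without pCORTEX:GFP or PET111 they stayed within 1.5 times of the counts over 3 libraries. Here and below, fits with 1 library left out hold 2 libraries. Their p-values and calls are not on the same footing as those over 3 libraries.

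Of 14 tested epidermal patterning genes, 6 were higher, 2 were lower and 6 did not pass, with a median log2 difference of 1.41. MYB23 stood at 53.5, 51.4 and 37.3 CPM in WER-positive barcodes and at 3.24, 4.18 and 14.2 in barcodes with no WER UMI. Its log2 difference was 3.01 (SE 0.73, adjusted p = 0.0393 by edgeR). The groups did not overlap, and pSCR:GFP had both the lowest WER-positive level and the highest level without WER. GL2 stood at 18.2, 23.5 and 10.0 CPM against 2.52, 3.53 and 1.49, a log2 difference of 2.71 (SE 0.22, adjusted p = 0.00355 by edgeR). TRY had the highest log2 difference of all genes that met the naming rule, 5.13 (SE 0.64, adjusted p = 0.00674 by edgeR), from 10.98, 12.6 and 9.08 CPM against 0.297, 0.128 and 0.533. TTG2, a WRKY factor downstream of WER in the non-hair pathway, EGL3 and HDG11, a homeodomain factor related to GL2, were also higher. Their log2 differences were 3.08, 2.21 and 2.12. The call of HDG11 was lost without pCORTEX:GFP (adjusted p = 0.0878 by edgeR) and without PET111 (0.0942).

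CPC was abundant but not called. Its level was 143, 157 and 155 CPM in WER-positive barcodes against 29.3, 31.5 and 144 in barcodes with no WER UMI, a log2 difference of 1.55 (SE 0.65, adjusted p = 0.132 by edgeR). The 2 groups were far apart in pCORTEX:GFP and PET111 and nearly level in pSCR:GFP, and without pSCR:GFP the log2 difference was 2.36 with an adjusted p of 0.000346. TTG1 stood at 18.3, 16.2 and 23.4 CPM against 18.1, 17.0 and 16.7, and its log2 difference of 0.07 (SE 0.17) did not pass (adjusted p = 0.786 by edgeR). GL3 stood at 3.86, 3.87 and 4.54 against 1.84, 1.57 and 4.34 (adjusted p = 0.218 by edgeR), and it passed without pSCR:GFP (log2 difference 1.22, adjusted p = 0.00511). JKD, a zinc finger factor of the ground tissue that acts on epidermal patterning from the cortex, was lower, at 1.02, 0.490 and 1.80 against 17.8, 22.1 and 9.64, a log2 difference of -4.01 (adjusted p = 0.00792 by edgeR). ZFP5, a zinc finger factor that promotes root hairs, was lower by a log2 difference of -1.19 (adjusted p = 0.0464 by edgeR), a call lost without PET111 (adjusted p = 0.0777).

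**Figure D1:**
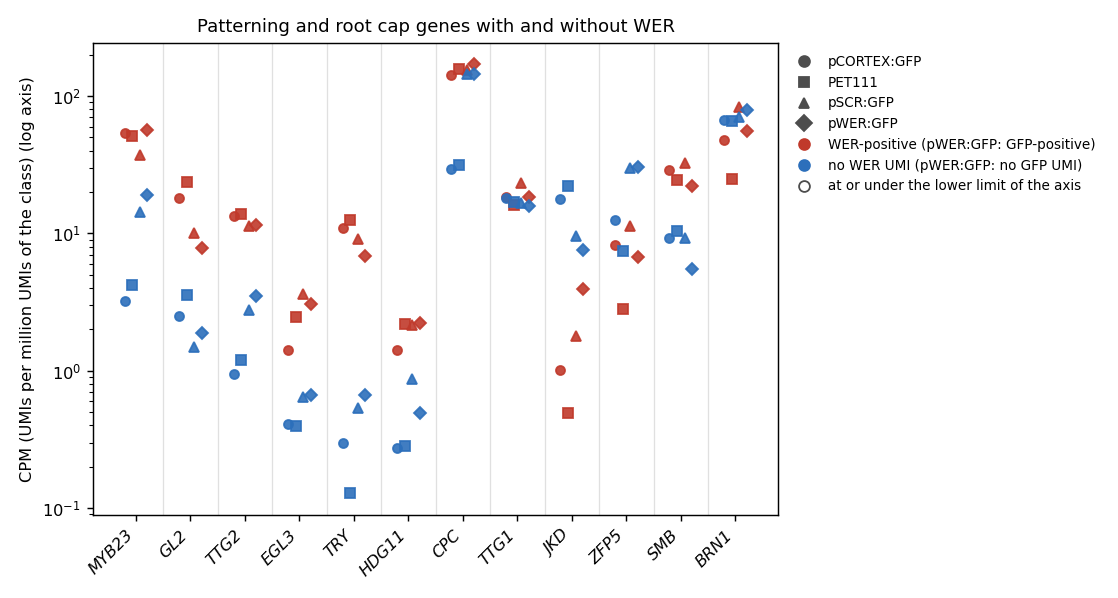
CPM (log axis) of 12 patterning and root cap genes in WER-positive barcodes (red) and barcodes with no WER UMI (blue), 1 marker shape per library. In pWER:GFP (diamonds) the classes are GFP-positive barcodes and barcodes with no GFP UMI. MYB23, GL2, TTG2, EGL3, TRY and HDG11 lie higher in red in each library, TTG1 overlaps, and CPC without WER stands at 144 in pSCR:GFP against 29.3 in pCORTEX:GFP.

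Genes of hair growth were low in WER-positive barcodes. Of 12 root hair genes, 9 were lower and 0 higher, with a median log2 difference of -5.39. The 3 that did not pass were RSL1, RHD2 and PIP5K3. RSL4, the bHLH factor that sets hair growth, stood at 1.27, 0.544 and 2.40 CPM against 48.9, 28.9 and 26.3. EXPA7, an expansin of the hair wall, stood at 0.935, 0.272 and 3.00 against 47.2, 46.2 and 81.4. Both differed by more than their spread over libraries, with log2 differences of -4.85 (SE 0.43, adjusted p = 0.00384) and -5.81 (SE 0.48, adjusted p = 0.00357 by edgeR). RHD6, which acts at the start of hair formation, was closer between groups at 6.40, 4.19 and 6.68 against 10.9, 18.1 and 33.5, a log2 difference of -1.80 (adjusted p = 0.0409 by edgeR). RHD2, the NADPH oxidase of growing hairs, was at 26.1, 26.8 and 8.83 against 41.8, 49.9 and 71.8 and did not pass over 3 libraries (adjusted p = 0.129 by edgeR), but it was lower with any 1 library left out (log2 difference -1.97 without pCORTEX:GFP, -1.97 without PET111 and -0.73 without pSCR:GFP).

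The genes of highest log2 difference, apart from WER, held several wall and surface genes. LTPG1, a glycosylphosphatidylinositol-anchored lipid transfer protein, stood at 39.4, 34.1 and 21.4 CPM against 0.869, 0.333 and 2.78, a log2 difference of 4.97 (adjusted p = 0.0212 by edgeR). XTH5, which remodels xyloglucan, stood at 412, 320 and 195 against 13.3, 10.8 and 20.4, a log2 difference of 4.32 (adjusted p = 0.00793 by edgeR). AGP30, an arabinogalactan protein, stood at 558, 314 and 216 against 8.26, 11.8 and 56.1. HDG7, a homeodomain factor of the GL2 family, was at 5.81, 6.91 and 12.2 against 0.369, 0.307 and 0.433, with a log2 difference of 4.34 (adjusted p = 0.00354 by edgeR). All 4 were higher in each of the 3 libraries, and in AGP30 pCORTEX:GFP had the highest WER-positive level and pSCR:GFP the highest level without WER. The other genes named by the rule had log2 differences from 3.68 to 4.12. They were RTFL4 (ROTUNDIFOLIA like), GSTF14 (a glutathione S-transferase), TRM10, AT3G14540 (a terpenoid cyclase or prenyltransferase family protein), AT5G07040 (a RING/U-box protein), AT5G51500 (a pectin methylesterase inhibitor family protein), AT4G23515 (a TIR domain protein), AT1G33670 (a leucine-rich repeat protein), AT2G20835 (uncharacterized) and AT2G43480 (a peroxidase family protein), the annotated products being those of RefSeq.

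The 10 genes of lowest log2 difference that met the naming rule had 0 UMIs in all 1634 WER-positive barcodes. Against a floor of 3 UMIs summed over the WER-positive barcodes of the 3 libraries, AT5G27690 (a heavy metal transport family protein) was at least 75.05-fold lower and BSU1 (a protein phosphatase) at least 20.0-fold lower. The remaining 8 lay between these bounds and were AT4G09500, AT1G63310, PK1B, XTH10, AT2G30933, AT4G06536, AT3G12730 and AT1G24485. In barcodes with no WER UMI these 10 genes were rare as well, at 0.311 to 7.52 CPM.

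Markers of inner tissues were low. All 8 endodermis genes, 10 of 12 stele genes and 1 of 2 cortex genes were lower in WER-positive barcodes, and 0 were higher. The endodermis list summed to 331, 14.97 and 18.3 CPM in WER-positive barcodes against 3778, 3410 and 1419 without WER. The value of 331 in pCORTEX:GFP rested on few barcodes, since 10 barcodes held 94.5% of the UMIs of the list there, and without them it was 18.7. SHR, a stele transcription factor that moves to the endodermis, stood at 0.415, 0.0544 and 0.257 against 7.92, 10.5 and 4.86, a log2 difference of -4.93 (adjusted p = 0.0062 by edgeR). Reporter levels are given without a test. GFP of pCORTEX:GFP stood at 2.06 CPM in WER-positive barcodes against 8.31 without WER, and YFP of PET111 at 0.436 against 46.4. In pSCR:GFP the level was 1.80 against 3.84, but the rule had taken out the 4 barcodes with at least 10 GFP and 10 WER UMIs, which bears directly on the 21 GFP UMIs left, so no direction is read there. A GFP UMI was found in 3.83% of its WER-positive barcodes and in 3.33% of those without WER. The 8 YFP UMIs of the PET111 barcodes lay in a single barcode.

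Root cap genes did not all go the same way. SMB stood at 28.9, 24.7 and 32.7 CPM in WER-positive barcodes against 9.22, 10.5 and 9.25, a log2 difference of 1.497 (SE 0.20, adjusted p = 0.00755 by edgeR). FEZ, which acts in root cap stem cells, was higher by 1.85 (adjusted p = 0.0391 by edgeR). BRN1 was at 47.7, 25.1 and 83.5 against 67.1, 66.2 and 70.9, and BRN2 at 29.9, 13.9 and 44.9 against 39.6, 31.8 and 33.3, and neither passed (adjusted p = 0.181 and 0.277 by edgeR). Without pSCR:GFP both were lower, with log2 differences of -0.87 and -0.71 (adjusted p = 0.0277 and 0.0344). All 6 genes of root cap maturation and death were lower, with a median log2 difference of -4.55, among them the ribonuclease RNS3, at 2.20, 1.20 and 25.4 against 85.1, 43.7 and 289, and the polygalacturonase RCPG, at 2.70, 1.85 and 2.83 against 58.6, 49.1 and 114. Of 5 columella genes, 3 were lower and 0 higher. Lateral and other root cap cells cannot be told apart by these 4 NAC genes.

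Genes of DNA replication were higher. Of 14, 11 were higher and 0 lower, with a median log2 difference of 1.14. The histone H3.1 gene AT5G10400 stood at 691, 657 and 439 CPM against 225, 312 and 102, a log2 difference of 1.53 (SE 0.28, adjusted p = 0.0177 by edgeR), and it did not pass without pCORTEX:GFP (adjusted p = 0.0731) or without PET111 (0.069). CDT1A, a factor that licenses origins, stood at 34.0, 33.8 and 32.2 against 16.2, 19.2 and 9.93 (log2 difference 1.12, adjusted p = 0.0159 by edgeR). Of 17 mitotic genes, 4 were higher (CYCB2;3, CDKB1;1, AUR1 and HIK) and 0 lower, with a median of 1.47. The cytokinesis syntaxin KN shows the spread behind the other 13, with 32.4, 28.0 and 56.8 against 18.4, 20.5 and 3.68 (adjusted p = 0.138 by edgeR). The no-WER class of pSCR:GFP was the low value, and with any 1 library left out 14, 16 and 14 mitotic genes were higher (without pCORTEX:GFP, PET111 and pSCR:GFP). The list medians in these fits were 1.90, 2.05 and 0.83. Without pSCR:GFP 14 genes thus passed although the median was below the 1.47 over 3 libraries. The replication count was 7, 5 and 13 in the same fits.

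PLT2 and PLT3, AP2 factors of the stem cell niche, were higher, with log2 differences of 1.41 and 0.83, and the call of PLT3 was lost without pCORTEX:GFP (adjusted p = 0.0664 by edgeR) and without PET111 (0.24). PIN2, an auxin efflux carrier of epidermis and lateral root cap, stood at 127, 188 and 128 CPM against 42.1, 66.6 and 71.3. Its log2 difference of 1.24 (adjusted p = 0.0479 by edgeR) was lost without pCORTEX:GFP (0.0894) and without PET111 (0.201). AUX1, the auxin influx carrier, stood at 135, 142 and 101 against 48.3, 51.9 and 66.0 and did not pass (adjusted p = 0.0723 by edgeR), but it passed without pSCR:GFP (log2 difference 1.52, adjusted p = 0.000566). Of the protoderm list, 2 of 3 tested genes, the receptor kinase genes ACR4 and ALE2, were higher. ACR4 lost its call without pCORTEX:GFP (adjusted p = 0.051 by edgeR), and ALE2 without pCORTEX:GFP (0.167) and without PET111 (0.308). Of the 7 genes of the thalianol and marneral clusters, which make root triterpenes, 2 were lower, THAD and THAA, and 0 higher, against 20.4% of all genes called lower. Without pSCR:GFP 4 were lower and 1 higher, and THAD lost its call without pCORTEX:GFP (adjusted p = 0.168) and without PET111 (0.343).

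**Figure D2:**
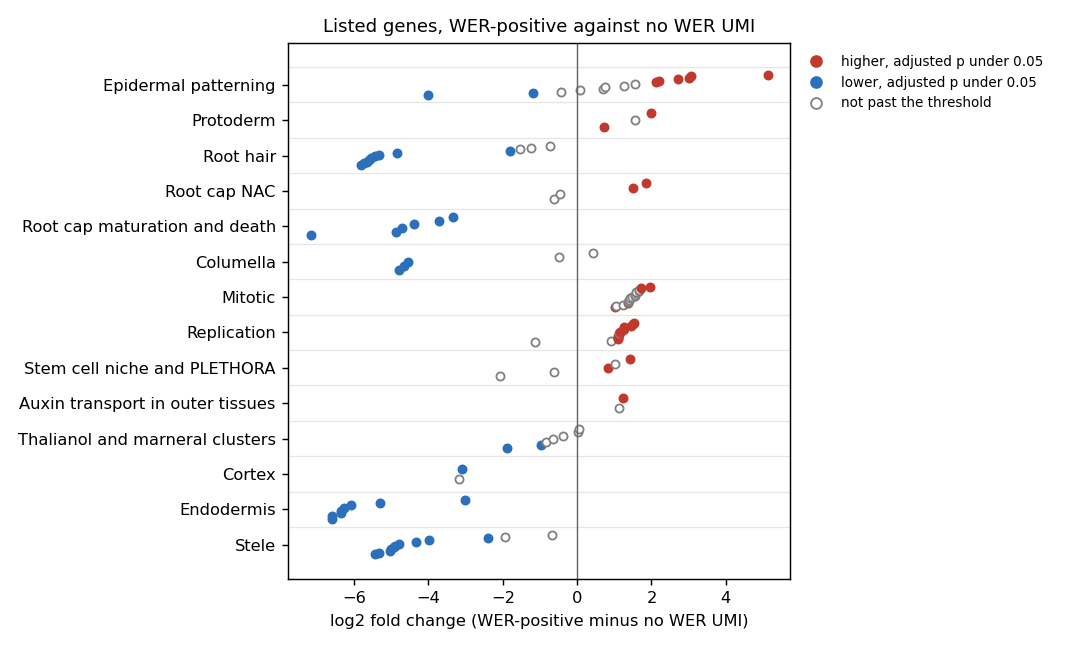
Log2 difference between WER-positive barcodes and barcodes with no WER UMI for each tested gene of 14 lists, filled where the edgeR adjusted p was under 0.05. Root hair, endodermis, stele and root cap maturation genes lie to the left, and 6 of 14 patterning genes and 11 of 14 replication genes are filled on the right.

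With both classes limited to barcodes with no UMI of the 4 root cap NAC genes, a limit chosen after seeing the data, 671 genes were higher and 3015 lower. The patterning list had 6 genes higher and 1 lower, and its median was 1.85. The mitotic list then had 0 of 17 genes higher by edgeR (2 at an unadjusted p under 0.05, median log2 difference 1.04), the replication list 3 of 14 (median 1.20, against 1.14 with all barcodes), and the PLETHORA and WOX5 list 0 of 4 (2 at an unadjusted p under 0.05, median 0.66 against 0.83). AUR1 had a log2 difference of 0.81 in that fit (adjusted p = 0.218 by edgeR), and AT5G10400 was still called higher (1.60). ZFP5 lost its call with a smaller log2 difference, -0.56 (adjusted p = 0.673). RHD6 (-1.56, adjusted p = 0.103), PLT2 (1.49, 0.136), PLT3 (1.04, 0.0831), ALE2 (0.68, 0.115) and THAD (-1.32, 0.0738) lost theirs with log2 differences close to or above in size those of all barcodes. The WER-positive classes in that fit were 363, 155 and 76 barcodes. On barcodes thinned to 2000 UMIs, the calls of TTG2 (log2 difference 1.09, adjusted p = 0.107 by edgeR), ZFP5 (-0.58, 0.172), FEZ (1.17, 0.11), RHD6 (-1.05, 0.0782), PLT2 (0.63, 0.292) and PLT3 (0.58, 0.128) were lost, each with a smaller log2 difference, and CPC was higher (log2 difference 1.13, adjusted p = 0.0162).

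The pWER:GFP library gave a set of barcodes chosen by GFP in place of WER, 580 with at least 2 GFP UMIs and 100 CPM and 4813 with none. It is 1 library, so its values have no replicate error and were not tested. Median depth was 23688 UMIs in GFP-positive and 7640 in GFP-free barcodes, a gap in the same direction as in the other lines. The part of depth in the shared directions below was not tested. WER stood at 644 CPM in GFP-positive and 19.6 in GFP-free barcodes. Of the 1170 genes called higher in WER-positive barcodes of the other lines, 1167 (99.7%) were higher in GFP-positive barcodes, and of the 4122 called lower, 88 (2.13%) were. Of all 20159 tested genes, 52.9% were. MYB23 was at 56.2 against 18.9, GL2 at 7.89 against 1.89 and TRY at 6.87 against 0.671. CPC, at 171 against 144, was nearly level there, as in pSCR:GFP. SMB was at 22.1 against 5.55 and the hair factor RSL4 at 1.16 against 23.4.

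A comparison with dividing cells outside the WER class used barcodes with no WER UMI that had at least 2 UMIs and at least 100 CPM summed over the 17 mitotic genes. They numbered 385, 129 and 187, of the 1384, 571 and 970 barcodes with no WER UMI that had any mitotic UMI. Their median depth was 9397, 38978 and 12328 UMIs. Of 17365 genes tested, 1.08% (188) were higher and 2.22% (385) lower in WER-positive barcodes by edgeR. The counts moved to 325 and 559 without pCORTEX:GFP, to 746 and 948 without PET111 and to 5036 and 4693 without pSCR:GFP.

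Of 14 patterning genes, 4 were higher, MYB23, GL2, TTG2 and TRY, and 1, JKD, was lower. The counts were 6 and 1 without pCORTEX:GFP, 5 and 1 without PET111, and 9 and 2 without pSCR:GFP, where CPC was among the higher genes (log2 difference 2.38, adjusted p = 0.00285 by edgeR). MYB23 was at 1.09, 0.410 and 3.07 CPM in mitotic barcodes with no WER UMI, against the 53.5, 51.4 and 37.3 given above, a log2 difference of 5.39 (SE 0.72, adjusted p = 0.0384 by edgeR). SMB was at 4.66, 1.71 and 8.54 there, lower than in WER-positive barcodes in each library (log2 difference 2.83, adjusted p = 0.0451 by edgeR). With at least 3 WER UMIs required, 0 of the 4 NAC genes passed (list median 1.81, against 2.00), and DESeq2 called all 4 higher. On thinned barcodes MYB23 did not pass (adjusted p = 0.0568 by edgeR). FEZ did not pass over 3 libraries (0.058) and was higher with any 1 library left out. Mitotic genes chose the class compared and were not tested. Of 14 replication genes, 0 passed in either direction by edgeR (5 at an unadjusted p under 0.05), 1 was higher and 1 lower by DESeq2, and on thinned barcodes 4 of 10 tested were higher. Without pSCR:GFP 5 were higher and 1 lower, and without the 5% of barcodes with the most UMIs 2 were higher. Their median log2 difference was 0.37. Of 8 stele genes tested, 6 were lower, SHR, TMO5, HB-8, ATHB-15, PHB and APL. Of 8 endodermis, 2 cortex, 8 root hair and 5 root cap maturation genes tested, 0 passed in either direction by edgeR. Their median log2 differences were -1.99, -2.44, 0.09 and -1.61. DESeq2 called 4 endodermis, 1 cortex and 1 root cap maturation gene lower and 2 root hair genes higher. On thinned barcodes 5 of 5 tested endodermis genes were lower by edgeR.

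AT2G16005, an MD-2-related lipid recognition domain protein, had the highest log2 difference under the naming rule, 7.40 (SE 0.90, adjusted p = 0.0336 by edgeR). Its level in pCORTEX:GFP stood apart, with 54.2, 2.89 and 3.51 CPM against 0.128, 0.0683 and 0.219. GRI, a stigma-specific STIG1 family protein, was at 113, 56.9 and 6.68 against 0.575, 1.02 and 0, a log2 difference of 6.77 (adjusted p = 0.0304 by edgeR). The lowest were the growth-regulating factor GRF6, the AGC kinase PID2, the gibberellin oxidase GA20OX3, the knottin family gene PDF2.5 and the heat shock factor HSFB4, which acts in stem cells of ground tissue. PDF2.5 was at 4.26, 1.31 and 2.91 against 475, 798 and 183, a log2 difference of -7.22 (adjusted p = 0.0319 by edgeR). PID2 had 2 UMIs in all WER-positive barcodes, and its level was 402 times higher in the mitotic class (counting interval 110 to 3329).

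WER-positive barcodes differed among themselves by root cap NAC transcripts. The class with these transcripts held 527, 150 and 203 barcodes and the class without them 363, 155 and 76. WER stood at 277, 255 and 223 CPM with and at 173, 161 and 158 without them, higher with them in each library. WER helped to choose the barcodes and is given as a description. Depth differed, with medians of 17363, 18815 and 17871 UMIs with and 69512, 69540 and 40812 without. The part of depth in the differences below was not tested beyond the fit on barcodes thinned to 2000 UMIs. In pWER:GFP, 45.9% of GFP-positive barcodes were in the NAC class (266 of 580, interval 41.8% to 50.0%) and 44.3% had no NAC UMI (257).

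**Figure D3:**
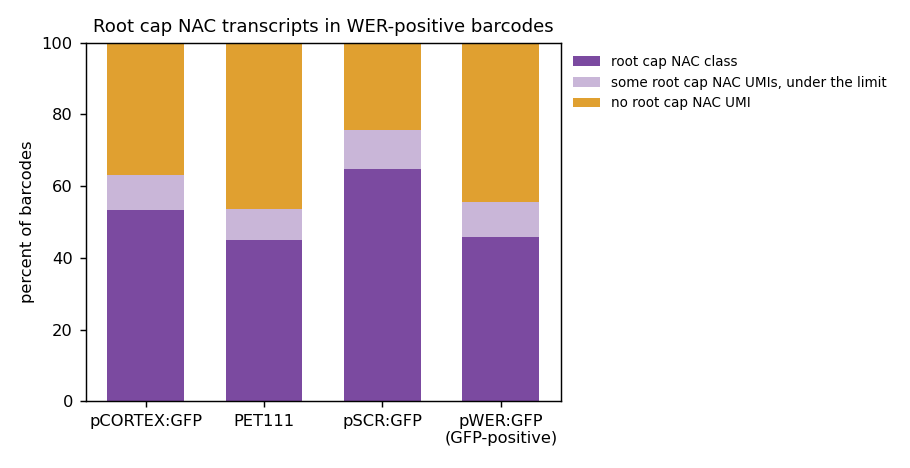
Percent of WER-positive barcodes in each library, and of GFP-positive barcodes in pWER:GFP, by summed UMIs of SMB, BRN1, BRN2 and FEZ. The NAC class was 44.9% to 64.9% of WER-positive barcodes and 45.9% of GFP-positive barcodes.

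Between these classes, of 15758 genes tested, 10.1% (1590) were higher and 5.5% (867) lower with NAC transcripts by edgeR. The counts were 843 and 263 without pCORTEX:GFP, 1076 and 491 without PET111, and 4196 and 4219 without pSCR:GFP. The 4 NAC genes and WER were left out of the test.

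Patterning genes were lower in the NAC class. Of 14 tested, 8 were lower, MYB23, GL2, GL3, EGL3, TTG2, CPC, TRY and ETC1, and 1, ZFP5, was higher, with a median log2 difference of -2.26. MYB23 stood at 2.89, 0 and 4.40 CPM with NAC transcripts and at 75.2, 67.6 and 69.3 without, a log2 difference of -5.14 (SE 0.67, adjusted p = 0.0108 by edgeR). GL2 stood at 3.94, 3.38 and 4.40 against 24.3, 30.0 and 15.7, a log2 difference of -2.74 (SE 0.32, adjusted p = 0.00745 by edgeR). The classes did not overlap for either gene, and the MYB23 levels without NAC transcripts were within a narrow range over the 3 lines. CPC stood at 12.2, 14.6 and 97.3 against 194, 201 and 207, a log2 difference of -3.18 (SE 0.69, adjusted p = 0.0347 by edgeR), with pSCR:GFP the high library of the NAC class. TRY and TTG2 were lower by log2 differences of -2.77 and -2.78. ETC1, another small MYB gene of the CPC family, had 1 UMI in the NAC class and was 67.5 times higher without NAC transcripts (counting interval 12.0 to 2683).

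ZFP5 ran the other way, at 23.6, 6.77 and 27.8 with NAC transcripts against 3.04, 1.72 and 0.741, a log2 difference of 2.92 (adjusted p = 0.0248 by edgeR). The patterning list had 8 genes lower without PET111 or without pSCR:GFP and had 6 without pCORTEX:GFP, where GL3 (adjusted p = 0.124 by edgeR) and EGL3 (0.0814) lost their calls. TTG1 was not called over 3 libraries and was higher with NAC transcripts without pSCR:GFP (log2 difference 0.49, adjusted p = 0.0132), as was HDG11 (1.28, adjusted p = 0.00935). Without the 5% of barcodes with the most UMIs, 4 of 11 tested patterning genes were lower, with the list's median at -2.26 as with all barcodes. CPC (log2 difference -3.28, adjusted p = 0.0956), TRY (-2.26, 0.0534) and GL3 (-1.97, 0.0807) did not pass by edgeR there.

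**Figure D4:**
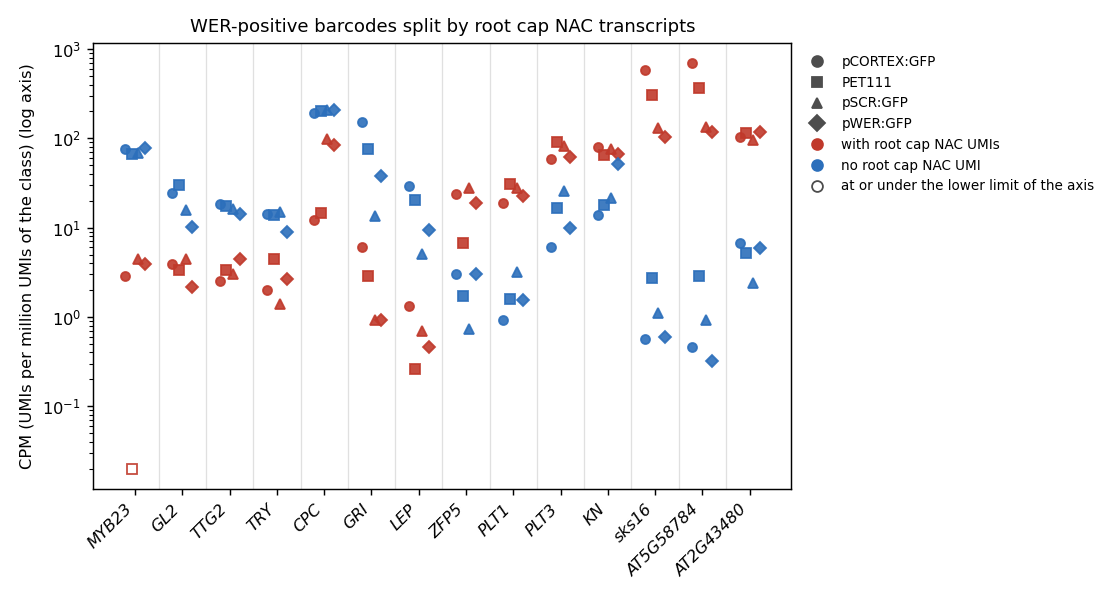
CPM (log axis) of 14 genes in WER-positive barcodes with root cap NAC UMIs (red) and with none (blue), 1 marker shape per library, and in GFP-positive barcodes of pWER:GFP (diamonds). MYB23 in PET111 with NAC UMIs was 0 and is drawn open at the lower limit. The genes from MYB23 to LEP lie higher in blue, and those from ZFP5 to AT2G43480 lie higher in red.

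Genes of division and the stem cell niche were higher in the NAC class. Of 17 mitotic genes, 12 were higher and 0 lower, with a median log2 difference of 1.19. KN stood at 79.2, 64.3 and 76.4 CPM against 14.0, 18.1 and 21.7, a log2 difference of 1.86 (SE 0.21, adjusted p = 0.00717 by edgeR). CYCB2;2, a B-type cyclin, stood at 22.0, 19.0 and 26.2 against 2.41, 5.39 and 6.85 (log2 difference 2.14, adjusted p = 0.0144 by edgeR). The mitotic count was 4 without pCORTEX:GFP, 8 without PET111 and 15 without pSCR:GFP. Without the 5% of barcodes with the most UMIs, 4 mitotic genes lost their calls with the direction kept. They were HIK (log2 difference 1.185, adjusted p = 0.0675 by edgeR), AUR1 (1.70, 0.0854), CDC20.1 (2.22, 0.0704) and MAP65-3 (2.14, 0.0866). The share of barcodes with a mitotic UMI, once thinned to 2000 UMIs, was 18.0% against 12.1% in pCORTEX:GFP and 18.7% against 10.97% in PET111, but 15.8% against 22.4% in pSCR:GFP, so no order is read from the shares. The unthinned shares were 48.0% against 65.8%, 48.7% against 65.8% and 40.9% against 69.7%.

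Replication genes did not follow the mitotic genes. Of 14, 1 was higher, CDT1A (log2 difference 0.87), and 1 lower, the histone H3.1 gene AT5G10390 (-1.27), with a median of 0.00. CDT1A lost its call without pCORTEX:GFP (adjusted p = 0.203 by edgeR) and without PET111 (0.208), and AT5G10390 without PET111 (0.115). PLT1 stood at 18.9, 30.5 and 28.0 CPM with NAC transcripts against 0.925, 1.57 and 3.15, a log2 difference of 3.75 (SE 0.29, adjusted p = 0.00281 by edgeR). PLT3 stood at 59.0, 90.9 and 82.2 against 6.01, 16.4 and 25.7, a log2 difference of 2.29 (adjusted p = 0.0119 by edgeR), and PLT2 was higher by 2.54. All 3 PLETHORA genes were above their counterparts in each library. AUX1 was higher by 1.34 (adjusted p = 0.0202 by edgeR), a call lost without pCORTEX:GFP (0.0594), and PIN2 passed only without pSCR:GFP (0.70, adjusted p = 1.65e-05). Without the 5% of barcodes with the most UMIs, PLT2 (log2 difference 2.69, adjusted p = 0.0881 by edgeR) and AUX1 (1.07, 0.0985) did not pass. CDT1A (0.79, 0.145) and AT5G10390 (-1.17, 0.159) did not pass there either.

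All 4 tested genes of root cap maturation and death, CEL5, RCPG, RNS3 and PASPA3, were higher with NAC transcripts. Their levels in the NAC class, 1.62 to 46.8 CPM, were below those of barcodes with no WER UMI in each library. They were uneven between barcodes, as 10 barcodes held 51.6%, 89.9% and 91.1% of the UMIs of the list among WER-positive barcodes. RNS3 stood at 7.52, 3.65 and 46.8 against 0.297, 0.150 and 0.741, a log2 difference of 4.89 (adjusted p = 0.00289 by edgeR). Of 2 tested columella genes, 1 was higher, LZY3, a LAZY gene of gravity sensing, by 5.71. The other, ARL2, did not pass and was level over the 3 libraries, at 2.50 CPM with NAC transcripts against 2.47 without.

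The genes of highest log2 difference in the NAC class were the cis-prenyltransferase CPT, AT5G58784 (an undecaprenyl pyrophosphate synthetase family protein), sks16 (SKU5 similar), AT3G49190 (a WSD1-like acyltransferase) and AT5G15940 (a Rossmann-fold protein), with differences from 7.47 to 8.71. CPT stood at 146, 65.6 and 24.1 CPM against 0.330, 0.0749 and 0, and sks16 at 590, 303 and 132 against 0.561, 2.70 and 1.11. The order pCORTEX:GFP, PET111, pSCR:GFP was the same for both. AT2G43480, among the genes highest in the comparison with no WER, stood at 103, 115 and 96.6 with NAC transcripts against 6.74, 5.24 and 2.41 (log2 difference 4.27, adjusted p = 0.00289 by edgeR). LTPG1, of the same set, went the other way, at 1.14, 1.56 and 5.79 against 53.1, 43.6 and 37.6 (log2 difference -4.44, adjusted p = 0.0124 by edgeR). The lowest were AT5G02000 (uncharacterized), AT1G05660 (a pectin lyase-like protein), MYB23, GRI and LEP, an AP2/ERF-type factor. GRI stood at 6.04, 2.86 and 0.926 against 154, 75.5 and 13.3, a log2 difference of -4.78 (adjusted p = 0.00187 by edgeR). AT5G02000 lost its call without pCORTEX:GFP (adjusted p = 0.0578).

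**Figure D5:**
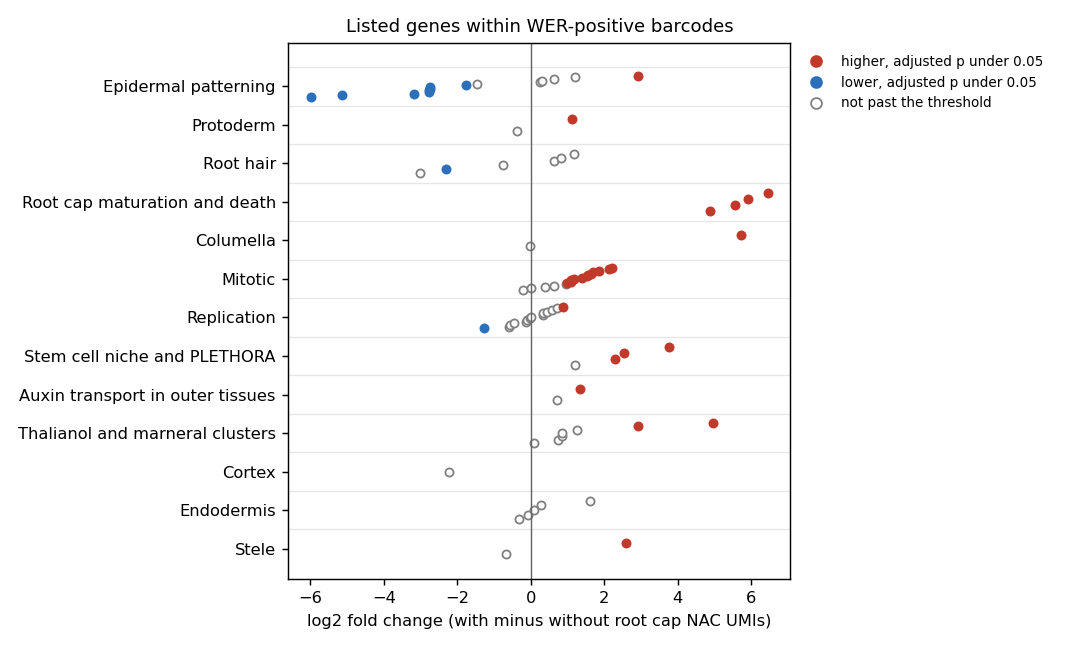
Log2 difference between WER-positive barcodes with and without root cap NAC UMIs for each tested gene of the lists, filled where the edgeR adjusted p was under 0.05. Of 14 patterning genes 8 are filled on the left, and 12 of 17 mitotic genes and 3 of 4 tested PLETHORA and WOX5 genes are filled on the right.

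GFP-positive barcodes of pWER:GFP, which entered neither the rule nor this test, were split in the same way. Their median depth was 21176 UMIs with and 49016 without NAC transcripts, a gap in the same direction as in the 3 lines. The part of depth in the shared directions was not tested. Of the 1590 genes called higher with NAC transcripts, 1582 (99.5%) were higher there, against 61.6% of all tested genes. Of the 867 called lower, 857 (98.8%) were lower, against 38.4% of all tested genes. MYB23 stood at 3.87 (exact Poisson 95% interval 2.51 to 5.72) against 78.3 CPM (74.3 to 82.4), and PLT1 at 22.8 (19.2 to 26.8) against 1.56 (1.05 to 2.24). KN was closer, at 66.6 (60.5 to 73.2) against 51.3 (48.1 to 54.7). Of the mitotic list, CYCB1;1 (14.7 against 16.3), CYCB1;3 (8.37 against 15.5) and CDKB1;1 (27.4 against 31.1) were lower with NAC transcripts. The rest of that list was higher with them, in part with overlapping intervals, as for CYCB1;4 at 11.2 (8.73 to 14.0) against 10.4 (9.03 to 12.0). These values come from 1 library and cover counting error only.

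GL2 is known to stay active in non-hair cells after they leave the meristem. Barcodes with no WER UMI that had at least 2 GL2 UMIs and at least 100 CPM of GL2 numbered 30, 30 and 2, so pSCR:GFP was left out of that comparison and 2 libraries remained. With 2 libraries, the p-values of that comparison rest largely on variance shared over genes and are not comparable with those over 3 libraries. Of 15883 genes tested, 29.8% (4739) were higher and 18.3% (2901) lower in WER-positive barcodes by edgeR, with a median of 0.78. MYB23 was at 33.2 and 39.5 CPM in GL2 barcodes of pCORTEX:GFP and PET111 and CPC at 153 and 140. Neither passed against WER-positive barcodes (log2 differences 0.54 and 0.06, adjusted p = 0.137 and 0.87 by edgeR). With no root cap NAC UMI in either class MYB23 was higher with WER (1.03, adjusted p = 0.00362), and 3 of 9 tested patterning genes were higher and 1 lower. TRY was the 1 patterning gene of 12 tested that was higher with WER, at 10.98 and 12.6 against 4.15 and 0 (log2 difference 2.69, adjusted p = 0.00882 by edgeR), and it did not pass without the 5% of barcodes with the most UMIs (0.128). The GL2 class held 2 TRY UMIs in all, so its TRY level rests on those 2 UMIs.

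Transcripts of division and of the root cap separated these classes. Of 17 mitotic genes 15 were higher in WER-positive barcodes, of 14 replication genes 13, and of 4 root cap NAC genes 4. DESeq2 called 5, 10 and 3 of them, and 0 of 12 patterning genes. SMB had 0 UMIs in the GL2 class, and WER-positive barcodes were at least 10.08-fold higher against a floor of 3 UMIs over both libraries. The genes of highest difference, sks15, AT5G58784, AT3G17160, AT3G02120 and GATA2, were at 0 in the GL2 class of both libraries and at least 34.4-fold to 57.6-fold higher with WER. Of 9 tested root hair genes, 5 were lower with WER and 0 higher, with a median log2 difference of -2.41. Over both libraries RHD2 stood at 26.3 CPM against 142 in the GL2 class, and PRP3 at 1.52 against 7.34. RHD6 ran the other way, at 5.79 against 2.75, with 3 UMIs in the GL2 class. Hair genes were thus present in the GL2 class, which was chosen by GL2 alone and is not read as a cell type. All 7 thalianol and marneral genes were lower with WER. THAS1, the thalianol synthase, stood at 153 and 112 against 1410 and 1311, a log2 difference of -3.35 (SE 0.30, adjusted p = 5.42e-27 by edgeR). CER4, a fatty acyl reductase that makes wax alcohols, stood at 8.85 and 5.39 against 643 and 655, a log2 difference of -6.51 (adjusted p = 4.95e-92 by edgeR). AT1G19900, AT3G45710, AT3G21340 and ATCSLB05 were likewise lower, by -6.38 to -6.69. The size of the p-values of THAS1 and CER4 is not read, since 2 libraries give little measure of the spread between libraries.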

How the data were processed

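The deposited values were raw counts for each gene in each barcode, and per the submitters' processing notes Cell Ranger 7.1.0 and Seurat were used. The genome build, annotation and cell filter were not given in the sources used here. Each table had 32833 gene rows and a reporter row, and gene names came from RefSeq TAIR10.1, which matched 32548 rows. Values are called UMIs, and levels (CPM) are UMIs of a gene per 1000000 UMIs, both summed over a class of barcodes.

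Barcodes are not replicates, so UMIs were summed per library and class, giving 2 sums in each of 3 libraries. The sums held 3840819 to 138117469 UMIs, except the GL2 class (482183 and 608016). They were tested with edgeR 4.0.16 (R 4.3.3, limma 3.58.1) by quasi-likelihood, with filterByExpr, TMM scaling and the library as a block, since both sums of a library share its plants and batch. P-values were Benjamini-Hochberg adjusted over all genes tested. A library with fewer than 10 barcodes in a class was left out. The procedure was tested on simulated data with known changes. The simulation used a single dispersion for all genes and the same change in each library, so it does not cover shifts in a single library. No doublet caller was run. Barcodes with the most UMIs were left out as an alternative. Intervals are exact (95%) and, like floors of 3 UMIs, cover counting error only. DESeq2 1.42.0, other scaling, depth, organelle, WER and thinning limits, and each library left out were alternatives.

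The barcodes and gene lists were chosen with earlier results of these data known. Beside the lists, the text names the 15 highest and 10 lowest called genes of the main comparison and 5 and 5 of each other comparison, given the same sign in each library and at least 30 UMIs in each. Python 3.11.15 was used for sums.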

Additional observations from a re-analysis of the deposited data

How the results depend on the processing

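With the choices changed one at a time, direction was checked for the genes of the lists or the naming rule that were called in a comparison. Some named genes that were not called were checked as well, and the other uncalled list genes were not. Wherever an adjusted p could be computed, direction held for all genes checked but 3, all in the comparison with GL2 barcodes. PRP3 had a log2 difference of 0.1755 with at least 10000 UMIs per barcode. On barcodes thinned to 2000 UMIs MYB23 had -0.474 and MRN1 1.48. The causes were not tested.

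Against barcodes with no WER UMI (1170 genes higher, 4122 lower), DESeq2's Wald test gave 2470 higher, thinned barcodes 1948, and leaving out the 5% of barcodes with the most UMIs 2905. With no root cap NAC UMI in either class, chosen after seeing the data, 671 were higher. Leaving out 1 library gave 959 to 4986 higher and 3092 to 6848 lower, the highest without pSCR:GFP.

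Against mitotic barcodes (188 and 385), genes higher numbered 292 with DESeq2 size factors, 1823 with DESeq2, 568 with no filter, 334 with at least 10000 UMIs, 372 thinned, 293 with an organelle limit of 5%, 105 with at least 3 WER UMIs, 470 without the deepest 5% and 521 with no NAC UMI. Genes lower numbered 1134 with DESeq2, 649 with no filter and 663 without the deepest 5%. Leaving out 1 library gave 325 to 5036 and 559 to 4693, the highest without pSCR:GFP.

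Between WER-positive barcodes with and without NAC transcripts (1590 and 867), thinning gave 357 and 141, on 4799 genes tested, and leaving out the deepest 5% gave 643 and 191. Genes lower numbered 1462 with DESeq2 and 1312 with no filter. Leaving out 1 library gave 843 to 4196 and 263 to 4219, the highest without pSCR:GFP. Against GL2 barcodes (4739 and 2901), DESeq2 gave 2280 and 1728 and thinning 1143 and 862, and no library could be left out.

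The replicate block was the library, which pairs both sums of a library. Without the block, 535 genes were higher and 2671 lower against no WER UMI, 203 and 314 against mitotic barcodes, 498 and 161 by NAC transcripts, and 5187 and 2940 against GL2 barcodes.

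The share of WER-positive barcodes in pCORTEX:GFP, PET111 and pSCR:GFP was 19.24%, 13.36% and 8.726% with at least 10000 UMIs, 14.45%, 10.87% and 5.377% with the organelle limit of 5%, and 11.02%, 8.22% and 3.221% with at least 3 WER UMIs. Depth limits genes at a few UMIs per class, and the GL2 class held 30 barcodes in each of 2 libraries.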
